A study of Solanum lycopersicum with 6 samples.

Results

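The light-harvesting chlorophyll a/b-binding genes of tomato are the subject here. They were taken as a list of 32 gene identifiers of the LHCA and LHCB families and matched to the rows of a table of 35603 genes of the cultivar M82. Of the 32, 30 had a row. Solyc03g005790 and Solyc05g056070 were not found there and were not analysed. All 30 genes passed the filter on low counts (at least 50 counts in at least 2 libraries), as did 19123 genes in all.

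The samples were taken from the fourth leaf of wild type M82 plants, 4 weeks old, grown at 24 °C with 16 h of light. Plants were moved to 45 °C and harvested after 0 h, 1 h or 6 h of heat stress (HS), and no agent or transgene was used. Each time was represented by 2 RNA-seq libraries, which the labels call biological replicates. Per the study, a replicate was a pool of plants. The comparisons ask how the messenger RNAs of these genes stood early and later in the heat. The 0 h libraries are the control of both heat times, and no unheated plants of 1 h or 6 h were analysed, so heat and elapsed time of day cannot be told apart.

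Light-harvesting proteins hold most of the chlorophyll of a leaf. LHCA proteins surround photosystem I and LHCB proteins surround photosystem II, where they pass absorbed light energy to the reaction centres. They are encoded in the nucleus, made in the cytosol and imported into the chloroplast. In land plants they form a multigene family with several near-identical copies, and their messenger RNAs are known to be abundant in green tissue and to follow light and the circadian clock. The table gives identifiers only and no description matched to them was used, so no LHCA or LHCB type is assigned to a single gene below, and the genes are described by locus.

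The 30 genes lay at 19 loci. The largest was a tandem array of 8 genes at chr2:40129987-40152581 (coordinates of the deposited M82 gene models). Its copies, from Solyc02g070940 to Solyc02g071030, were all on the plus strand, each spanned 798 bp, and were separated by 1518 to 6537 bp with no other gene between them. A group of 3 genes, Solyc03g005760, Solyc03g005770 and Solyc03g005780, lay at chr3:550044-556211, the first on the minus strand and the other two on the plus strand. Solyc08g067320 and Solyc08g067330 lay 56 bp apart on the minus strand at chr8:57217689-57218317, with spans of 276 and 297 bp. Solyc01g105030 and Solyc01g105050 were near each other at chr1:87541995-87549026 with 2 other genes between them. The other 15 genes were single. None of the 30 overlapped another gene on its own strand, and counting used the strand.

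Libraries held between 25147160 and 30738632 counts. Values are given as CPM, counts per 1000000 of a library size scaled by TMM, a method that sets the bulk of genes level between libraries. The scaling factors of the 0 h pair were 0.955 and 0.992, those of the 1 h pair 0.884 and 0.866, and those of the 6 h pair 1.14 and 1.22. At 6 h, replicate 2 was below replicate 1 in 30 of the 30 genes (50.6% of all tested genes), with a median log2 ratio of -0.52 (from -1.18 to -0.24), although both libraries had nearly the same depth (28369763 and 28374970 counts). The same comparison gave 19 of 30 genes at 0 h (49.6% of all tested genes) and 10 of 30 at 1 h (49.0%). The part of this difference between the 6 h libraries in the results was measured by leaving out each library in turn, and those values stand beside the counts they move. The leaf label could not be checked against markers of other cell types, which are not named in the table.

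The light-harvesting genes were among the most abundant of the leaf at 0 h. Together they took 5.16% ± 0.00698 (SD, n = 2) of all counts. After 1 h of HS their share was 2.89% ± 0.0244, and after 6 h it was 3.14% ± 0.606. The single 6 h libraries held 3.57% and 2.71%, so both heat times lay below both 0 h libraries, and the 6 h libraries fell on either side of the 1 h ones. With the TMM-scaled library size as the denominator the means were 5.30%, 3.30% and 2.69%, so the order of 1 h and 6 h turned with the scaling while the drop from 0 h did not. In bulk leaf RNA, fewer cells of a type and less RNA per cell cannot be told apart.

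Counts per base of gene span give the same picture gene by gene. Of the 20 genes with the most counts per base, 10 were light-harvesting genes in each 0 h library, 2 in each 1 h library and 5 in each 6 h library. Their highest value at 0 h was 79.6 and 80.2 counts per base, against 135 and 130 for the highest of any gene. Within the family, levels at 0 h ranged from 3213 CPM per kb for Solyc02g070940 to 12.03 CPM per kb for Solyc06g069000. Solyc02g071030 (3200), Solyc02g071000 (3057), Solyc02g071010 (2971) and Solyc07g047850 (2849) followed the first in CPM per kb, and Solyc07g022900 (136), Solyc12g009200 (222) and Solyc05g056050 (288) stood above the last. Spans include introns, so these levels understate genes with long introns.

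**Figure D1:**
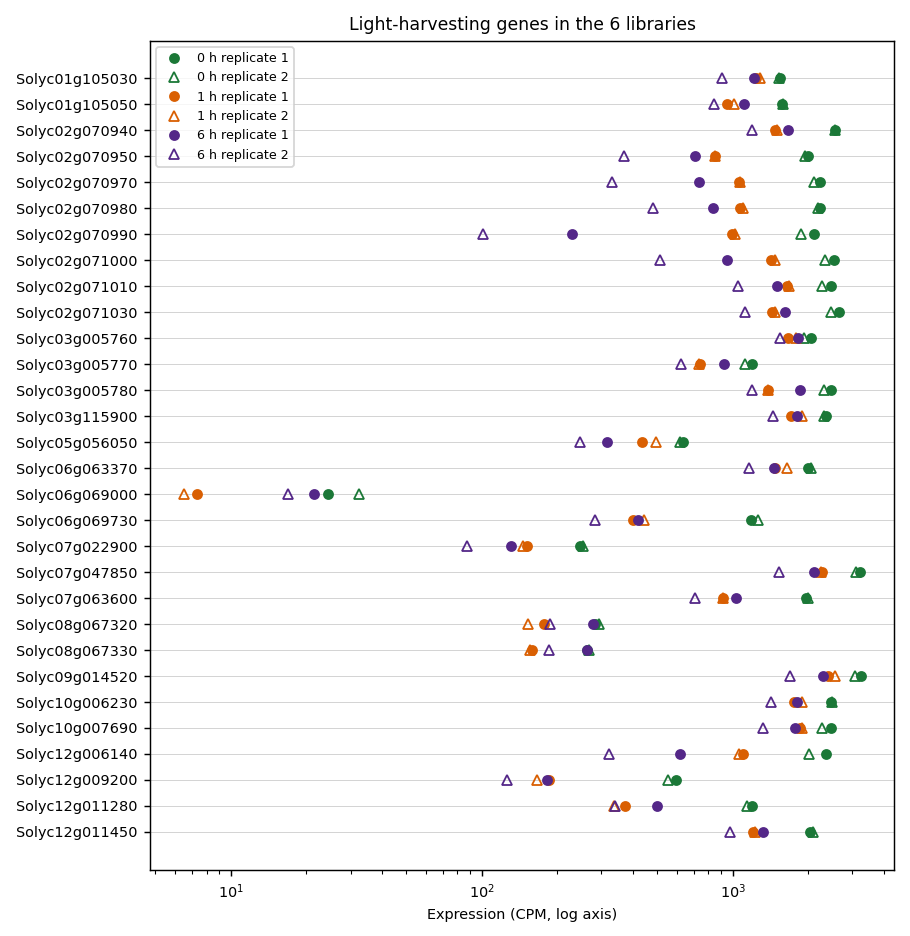
Expression of the 30 light-harvesting genes in each of the 6 libraries, in CPM on a log axis. Circles are replicate 1 and triangles replicate 2, with 0 h in green, 1 h in orange and 6 h in purple. In every row both 0 h points lie to the right of all 1 h and 6 h points, and the open 6 h triangle lies left of the filled 6 h circle.

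After 1 h of HS, all 30 genes were lower than at 0 h, with no overlap between the libraries of the 2 times. Over all tested genes, 41.3% were lower without overlap. In edgeR's quasi-likelihood test with Benjamini-Hochberg adjustment over all tested genes, 21 of the 30 were called lower at an adjusted p below 0.05 and 0 were called higher, where 31.3% of all tested genes were called lower and 32.2% higher. The log2 fold changes had a median of -0.76 and ranged from -2.04 to -0.21, against a median of 0.00 over all tested genes. Of the 21, 9 fell by at least 1 on the log2 scale, as did 14.9% of all tested genes.

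The count of 21 rested on both 1 h libraries. Without 1 h replicate 1 it was 9 (22.7% of all tested genes were then called lower) and without 1 h replicate 2 it was 7 (22.6%), in fits where the remaining library was taken to vary like those of the other times. The count of 7 is close to the share of all genes in its fit. All 30 log2 fold changes stayed below 0 in both fits, with medians of -0.77 and -0.76. Leaving out either 6 h library gave 29 (31.4% of all tested genes), since those libraries enter the shared estimate of the spread. The 7 genes called under each of 16 alternatives without a fold threshold were Solyc02g070950, Solyc06g069000, Solyc06g069730, Solyc07g063600, Solyc08g067330, Solyc12g009200 and Solyc12g011280. How many of all tested genes were called under each of them was not counted.

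The steepest early fall was that of Solyc06g069000, the least abundant member. Its level was 24.4 and 32.3 CPM at 0 h, 7.33 and 6.49 CPM at 1 h, and 21.5 and 16.9 CPM at 6 h. The 1 h libraries were the lowest and stood apart from both other times, and both 6 h libraries lay below both 0 h libraries. Its log2 fold change at 1 h against 0 h was -2.04 (SE 0.19, edgeR adjusted p = 3.53e-05), and its mean at 1 h was 24.4% of the 0 h mean.

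Next came 3 single genes of chromosomes 12 and 6 that fell early and stayed low. Solyc12g011280 went from 1192 and 1140 CPM at 0 h to 372 and 337 CPM at 1 h (log2 fold change -1.72, SE 0.20), Solyc12g009200 from 596 and 555 to 185 and 167 CPM (-1.71, SE 0.18), and Solyc06g069730 from 1181 and 1259 to 399 and 445 CPM (-1.53, SE 0.20). Each had at 1 h between 30.4% and 34.6% of its 0 h level. At 6 h the same genes had log2 fold changes against 0 h of -1.47, -1.90 and -1.79 in that order, and none of them was called between 6 h and 1 h by edgeR, with intervals (95%) of that difference from -0.20 to 0.69, from -0.59 to 0.22 and from -0.71 to 0.19.

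At the other end, Solyc03g005760 changed least. Its level was 2053 and 1928 CPM at 0 h, 1655 and 1797 CPM at 1 h, and 1827 and 1544 CPM at 6 h. The 0 h libraries were the highest, but by less than the spread allowed a call, with log2 fold changes of -0.21 (95% interval -0.61 to 0.19) at 1 h and -0.24 (-0.64 to 0.16) at 6 h. It was the sole member called in neither heat comparison, a pattern shown by 16.5% of all tested genes. That pattern was lost without 6 h replicate 1, where Solyc03g005760 was called lower at 6 h by edgeR (-0.37, adjusted p = 0.0273), and with plain library sizes, where it was called lower at 1 h (-0.36, adjusted p = 0.037).

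After 6 h of HS, all 30 genes were again lower than at 0 h without overlap, as were 37.7% of all tested genes. With the same test, 27 were called lower and 0 higher, against 28.0% and 30.9% of all tested genes. The median log2 fold change was -0.85 and the range was -3.59 to -0.24, with a median of 0.03 over all tested genes. Among members, 12 were called with a fall of at least 1 (log2), a size of call seen in 10.1% of all tested genes. All 30 log2 fold changes stayed below 0 when any library was left out, but fewer members were called lower in some of these fits. Their median was -1.09 without 6 h replicate 1 and -0.64 without 6 h replicate 2. Of the 27, 18 were called under each of the 16 alternatives without a fold threshold. The share of all tested genes called in this way was not counted, so 18 cannot be set against it.

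Of the 30, 19 were called lower at both heat times, where 14.5% of all tested genes were. Another 8 passed the test against 0 h at 6 h alone, which 8.22% of all tested genes did. These were Solyc01g105030, Solyc02g071010, Solyc03g115900, Solyc06g063370, Solyc07g047850, Solyc09g014520, Solyc10g006230 and Solyc10g007690. Their 1 h log2 fold changes lay between -0.51 and -0.29 and their 6 h values between -0.89 and -0.52. None of the 8 passed the test of 6 h against 1 h, so a late fall was not shown for any of them. In the fit to the 0 h and 1 h libraries alone, 29 members were called lower at 1 h (31.9% of all tested genes), these 8 included. The calls of the 8 at 6 h held in 7 (Solyc03g115900) to 16 (such as Solyc02g071010) of 17 alternatives, the fold threshold included.

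Solyc09g014520 was the most abundant single gene by its mean CPM and one of those 8. It stood at 3237 and 3063 CPM at 0 h, 2400 and 2551 CPM at 1 h, and 2293 and 1701 CPM at 6 h. The 3 times did not overlap, and the second 6 h library was the lowest. The log2 fold change was -0.35 (SE 0.20, edgeR adjusted p = 0.164) at 1 h and -0.66 (SE 0.20, adjusted p = 0.0223) at 6 h against 0 h.

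**Figure D2:**
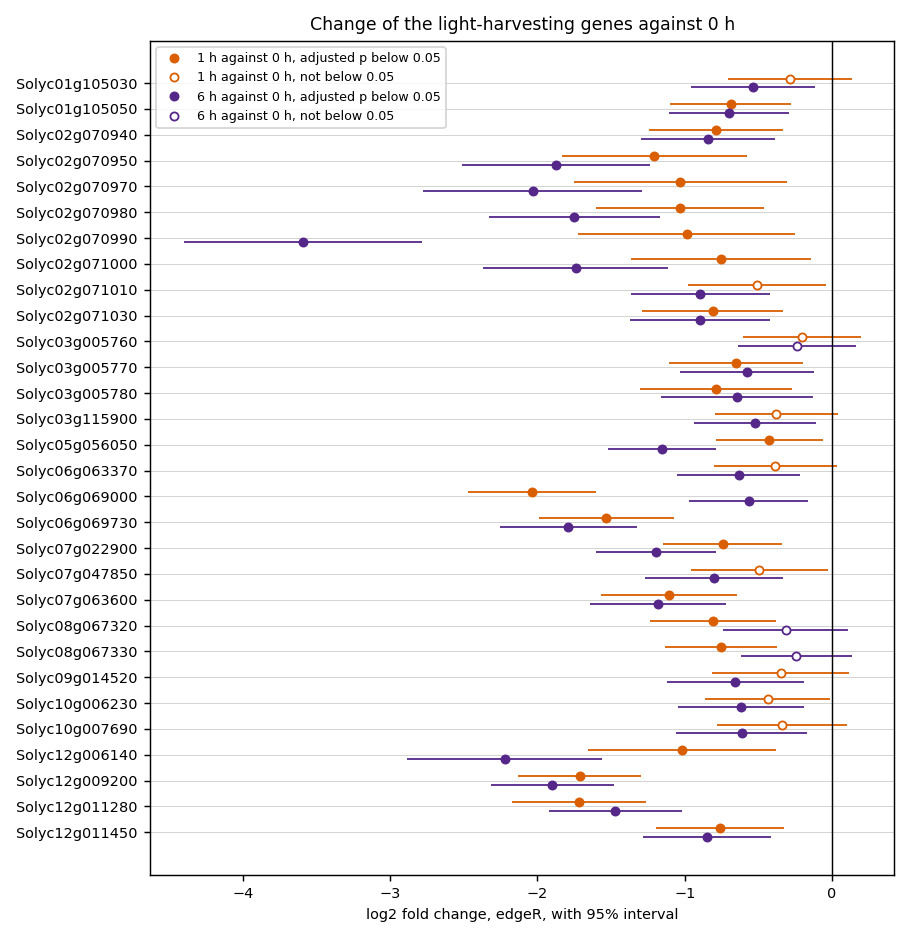
log2 fold changes of the 30 light-harvesting genes against 0 h from edgeR, at 1 h (orange) and 6 h (purple), with bars for the 95% interval and filled points for an adjusted p below 0.05. All points lie left of 0, between -2.04 and -0.21 at 1 h and between -3.59 and -0.24 at 6 h.

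**Figure D3:**
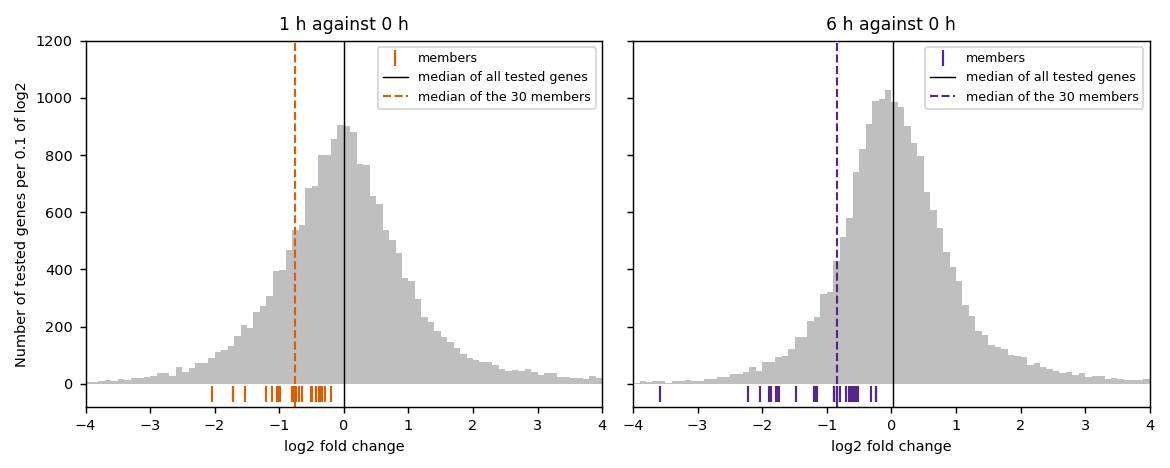
Histograms of the log2 fold change against 0 h of the tested genes, in bins of 0.1, with the 30 light-harvesting genes as ticks under the axis and both medians as lines. The axis ends at -4 and 4, which leaves out 393 genes at 1 h and 152 at 6 h. All ticks lie below 0, within the left side of the distribution of all genes.

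The tandem array of chromosome 2 held the copies that differed most from each other at 6 h against 0 h, from -3.59 to -0.84, where the 15 single genes ran from -2.22 to -0.52. At 1 h the single genes were the wider set, with -2.04 to -0.34 against -1.21 to -0.51 in the array. At 0 h its 8 copies were alike, with 1967 to 2564 CPM for the same span, and took 1.78% ± 0.0247 (SD, n = 2) of all counts. They took 0.879% ± 0.000203 at 1 h and 0.780% ± 0.216 at 6 h. In edgeR's test 7 of the 8 were called lower at 1 h (31.3% of all tested genes) and 8 of 8 at 6 h (28.0%).

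By 6 h the copies had parted. The first copy and the last 2 of the row, Solyc02g070940, Solyc02g071010 and Solyc02g071030, had log2 fold changes against 0 h of -0.84, -0.89 and -0.90. The 5 copies between them, Solyc02g070950, Solyc02g070970, Solyc02g070980, Solyc02g070990 and Solyc02g071000, had -1.87, -2.03, -1.75, -3.59 and -1.74. The 2 ranges did not overlap at 6 h. At 1 h they did, with -0.81 to -0.51 for the first set and -1.21 to -0.75 for the second. This division into sets was made after the values were seen and was not tested.

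The first copy, Solyc02g070940, had the highest mean level of the array. It stood at 2558 and 2570 CPM at 0 h, 1470 and 1506 CPM at 1 h, and 1660 and 1198 CPM at 6 h. The heat libraries lay below those of 0 h, and the 6 h pair fell on both sides of the 1 h pair. The log2 fold change was -0.79 (SE 0.20, edgeR adjusted p = 0.00804) at 1 h and -0.84 (SE 0.20, adjusted p = 0.00665) at 6 h.

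The fifth copy, Solyc02g070990, fell most of all members at 6 h. It went from 2113 and 1873 CPM at 0 h through 992 and 1018 CPM at 1 h to 229 and 102 CPM at 6 h. The 3 times were fully apart, and the mean at 6 h was 8.30% of that at 0 h. Its log2 fold change was -0.99 (SE 0.32, edgeR adjusted p = 0.0254) at 1 h, -3.59 (SE 0.35, adjusted p = 8.43e-05) at 6 h against 0 h, and -2.60 (SE 0.34, adjusted p = 0.000215) between 6 h and 1 h. Without 6 h replicate 1 the last value was -3.31 and without 6 h replicate 2 it was -2.13.

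Ratios taken within a library do not depend on scaling between libraries. The log2 ratio of Solyc02g070990 to the last copy, Solyc02g071030, stood in the 0 h libraries at -0.33 and -0.39, in the 1 h libraries at -0.54 and -0.53, and in the 6 h libraries at -2.82 and -3.47. For the neighbouring copies the mean ratio went from -0.38 over -0.77 to -1.40 (Solyc02g070950), from -0.23 over -0.45 to -1.45 (Solyc02g070970), from -0.20 over -0.43 to -1.09 (Solyc02g070980) and from -0.07 over -0.01 to -0.95 (Solyc02g071000). In each of these 5 copies both 6 h ratios were below all 4 earlier ones. The 5 copies and the last copy were put into different sets by their 6 h values, so this is no separate evidence for the division. Solyc02g070940 held its ratio within -0.05 to 0.09 in all 6 libraries, and Solyc02g071010 had -0.10 and -0.11 before the heat, 0.20 and 0.19 after 1 h, then -0.11 and -0.09 after 6 h. The reads of near-identical copies can be lost at the mapping quality of 30 that counting required, or be given to the wrong copy, and this loss was not measured, so single-copy values are uncertain. Solyc02g071030 also overlaps 1 gene on the opposite strand.

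**Figure D4:**
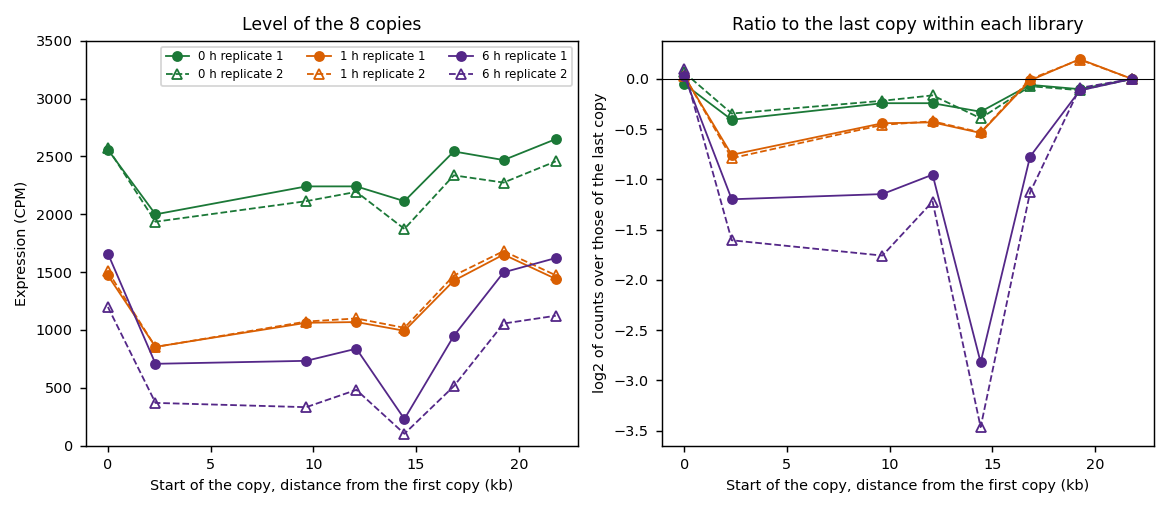
The 8 copies of the chromosome 2 array by the distance of their start from the first copy, in kb. The left panel gives CPM in each library and the right panel the log2 ratio of a copy's counts to those of the last copy within the same library. The fifth copy, 14.4 kb from the first, drops to 229 and 102 CPM and to ratios of -2.82 and -3.47 at 6 h (purple), while the seventh copy stays between -0.11 and 0.20 in all libraries.

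At 6 h against 0 h the 3 genes of the chromosome 3 group had smaller log2 fold changes than the chromosome 2 array. Their range was -0.64 to -0.24, against -3.59 to -0.84 in the array. At 1 h these ranges overlapped, with -0.79 to -0.21 and -1.21 to -0.51. Together the 3 genes took 0.538% ± 0.00959 (SD, n = 2) of all counts at 0 h, 0.336% ± 0.0033 after 1 h and 0.465% ± 0.0815 after 6 h. Of the TMM-scaled library size they took 0.553%, 0.384% and 0.398%, with the 6 h libraries (0.461% and 0.336%) on both sides of the 1 h libraries, so no rise from 1 h to 6 h was shown. Besides Solyc03g005760, described above, Solyc03g005770 had log2 fold changes of -0.65 at 1 h and -0.58 at 6 h and Solyc03g005780 of -0.79 and -0.64. These 2 were called lower at both times by edgeR (adjusted p from 0.0142 to 0.0363), and their 6 h against 1 h values were 0.07 (95% interval -0.38 to 0.53) and 0.15 (-0.37 to 0.66).

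The chromosome 8 pair fell at 1 h and was higher again at 6 h than at 1 h. Solyc08g067320 had 283 and 293 CPM at 0 h, 177 and 153 CPM at 1 h, and 277 and 186 CPM at 6 h. Solyc08g067330 had 264 and 268 CPM at 0 h, 159 and 156 CPM at 1 h, and 263 and 185 CPM at 6 h. For each gene the 6 h libraries lay above both 1 h libraries and below both 0 h libraries, with replicate 1 close to 0 h. edgeR gave log2 fold changes of -0.81 (SE 0.19, adjusted p = 0.00516) and -0.75 (SE 0.17, adjusted p = 0.00395) at 1 h against 0 h, and of 0.49 (SE 0.19, adjusted p = 0.0431) and 0.51 (SE 0.17, adjusted p = 0.0234) for 6 h against 1 h. Neither gene was called at 6 h against 0 h, with -0.31 (95% interval -0.74 to 0.11) and -0.24 (-0.62 to 0.13). Without 6 h replicate 1 both were called lower there by edgeR, with -0.63 (adjusted p = 0.00728) and -0.52 (adjusted p = 0.00771). The rise between 1 h and 6 h was no longer called for either gene without 6 h replicate 1 (0.18 and 0.24), without 1 h replicate 1 (0.60 and 0.53) or without 1 h replicate 2 (0.39 and 0.50). For Solyc08g067320 it was also no longer called with RLE scaling or in the fit to the 4 libraries compared. The counts of both genes stood in a ratio of 0.98 to 1.11 in all 6 libraries. They lie close enough for a fragment to reach both, so they are not 2 independent observations.

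On chromosome 1, Solyc01g105030 had the higher mean level of its pair. It stood at 1548 and 1529 CPM at 0 h, 1237 and 1288 CPM at 1 h, and 1214 and 905 CPM at 6 h. The heat libraries lay below 0 h, with log2 fold changes of -0.29 (edgeR adjusted p = 0.204) at 1 h and -0.54 (adjusted p = 0.0333) at 6 h. Its neighbour Solyc01g105050 had 1580 and 1592 CPM at 0 h, 952 and 1016 CPM at 1 h, and 1107 and 845 CPM at 6 h. It was called lower at both times (-0.69 and -0.70) and its heat times overlapped each other.

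In the direct comparison of 6 h with 1 h, 7 of the 30 were called lower and 3 higher, against 31.7% lower and 34.7% higher over all tested genes. The median log2 fold change was -0.22 (from -2.60 to 1.47), with 0.06 over all tested genes. It was -0.45 without 6 h replicate 1 and -0.01 without 6 h replicate 2. It was 0.01 with upper-quartile scaling and 0.20 with plain library sizes, where the medians of all genes were 0.29 and 0.48, so the members' median stood below that of all genes in each of these fits. These shares were below those of all genes in both directions, and 20 members were not called. All 7 that were lower had also been called lower at both heat times against 0 h, a sequence of calls shown by 2.79% of all tested genes. They were 4 inner copies of the chromosome 2 array and the single genes Solyc12g006140, Solyc05g056050 and Solyc07g022900.

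Solyc12g006140 had 2362 and 2019 CPM at 0 h, 1103 and 1059 CPM at 1 h, and 617 and 322 CPM at 6 h. Its 3 times did not overlap, and in edgeR the later step, 6 h against 1 h, was -1.20 on the log2 scale (SE 0.28, adjusted p = 0.00518). Solyc05g056050 had 634 and 617 CPM at 0 h, 434 and 497 CPM at 1 h, and 315 and 247 CPM at 6 h, with -0.73 (SE 0.16, adjusted p = 0.00368) between 6 h and 1 h. At 1 h against 0 h edgeR gave -1.02 (adjusted p = 0.0119) for Solyc12g006140 and -0.43 (adjusted p = 0.0425) for Solyc05g056050. These early calls held in 14 and 10 of 17 alternatives in that order, the fold threshold included. For Solyc07g022900 the levels were 246 and 253, 152 and 146, and 131 and 87.3 CPM at the 3 times. Its later step was -0.45 in edgeR (SE 0.18, adjusted p = 0.0486). That call held in 9 of 17 alternatives, with values from -0.77 to -0.04. The later calls of Solyc12g006140 and Solyc05g056050 held in 17 and 14 of them.

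Against this direction, Solyc06g069000 was 1.47 higher on the log2 scale at 6 h than at 1 h (SE 0.19, edgeR adjusted p = 0.0002), from a 1 h level of about 7 CPM, and remained lower than at 0 h (-0.56, SE 0.18, adjusted p = 0.0235). The latter call held in 12 of 17 alternatives, the fold threshold included, with values from -0.75 to -0.30. Among the fits that lost it were those without 6 h replicate 2 (-0.40) and without 0 h replicate 2 (-0.39). The other 2 genes called higher were the chromosome 8 pair. The 3 genes called under each of the 16 alternatives were Solyc02g070990, Solyc06g069000 and Solyc12g006140, without a matching count over all tested genes.

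The numbers called between 6 h and 1 h turned on single libraries. The number lower was 22 without 6 h replicate 1, 6 without 6 h replicate 2, 3 without 1 h replicate 1 and 2 without 1 h replicate 2, where 29.995%, 27.9%, 25.3% and 25.6% of all tested genes were lower. The first lies above the share of all genes and the others below it. The number higher was 1, 6, 1 and 1 in the same order, against 30.4%, 30.4%, 25.5% and 25.8%. With plain library sizes 3 members were called lower and 8 higher, where 18.6% of all tested genes were lower and 53.6% higher.

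Of the remaining single genes, 2 were called lower at both times. Solyc07g063600 had 1970 and 1990 CPM at 0 h, 916 and 920 CPM at 1 h, and 1033 and 711 CPM at 6 h (log2 fold changes -1.11 and -1.18 against 0 h). Solyc12g011450 had 2036 and 2094, 1209 and 1231, and 1321 and 973 CPM (-0.76 and -0.85). In both, the 6 h libraries enclosed those of 1 h. Solyc07g047850, the single gene with the highest level per kb, had 3224 and 3119, 2264 and 2241, and 2107 and 1530 CPM (-0.49 and -0.80). Solyc03g115900, Solyc06g063370, Solyc10g006230 and Solyc10g007690 had smaller differences, with log2 fold changes from -0.44 to -0.34 at 1 h and from -0.63 to -0.52 at 6 h.

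The relation of the changes to span and level was weak in ranks. Over the 30 members, which share the libraries, Spearman's rho of span with the change from 0 h was 0.15 for 1 h and 0.05 for 6 h, and rho of mean CPM per kb with the same changes was 0.23 and -0.00. Pearson's r on log2 of the level was 0.56 for 1 h and -0.03 for 6 h. Without Solyc06g069000, the gene of lowest level, the r for 1 h was 0.33.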

How the data were processed

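Leaf RNA-seq counts were used as deposited. Per the labels, stranded libraries were made from 2 µg of total RNA and read at 1 x 75 bp. Per the file headers, the authors obtained raw counts per gene with featureCounts 2.0.0 on M82 gene models 1.1.0, counting by strand, at a mapping quality of at least 30, with multi-mapped reads, reads over several genes and the option for paired fragments. The alignment names give trimming, Bowtie and removal of duplicates, and the submitters' processing notes name Trimmomatic 0.38, Bowtie2 2.3.5 and SAMtools 1.9, whereas the study's methods name STAR; which was used for these counts is not settled, nor whether a count is a single read or a pair. Gene length equals the span from start to end, so introns are counted. Removal of duplicates limits how high a very abundant gene can count, and loss of ambiguous reads lowers near-identical copies; neither was measured.

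The filter on low counts left 19123 genes, which were tested with edgeR 4.0.16 (R 4.3.3): TMM scaling, quasi-likelihood F test on all 6 libraries, two-sided, Benjamini-Hochberg over all tested genes, called at an adjusted p below 0.05. The standard error is the log2 fold change divided by the square root of F, and the 95% intervals use it with the residual (3) and prior (5.42) degrees of freedom. The common biological coefficient of variation was 12.3%. Data were also simulated for 1 h against 0 h, with 18670 genes in the step. In them edgeR called 82.4% of 108 genes changed by 1 (log2), 100% of 89 changed by 2, and 0.125% of 18473 unchanged. The simulation changed few genes and none by less than 1, whereas 63.5% of all tested genes were called in the real comparison. These rates therefore do not describe the calls on the members. Alternatives were DESeq2 1.42.0, RLE, upper-quartile and library-size scaling, TMM without the members, no filter, filterByExpr, a threshold of 0.01, a minimum change of 1, fits to the 4 libraries compared, a replicate block, and leaving out each library.

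The members and lists were chosen with earlier results of these data known. Genes described with all values were, per locus group, the one with the highest mean CPM, the largest fall and rise per comparison, and those called against the main direction; others given with values were chosen after their values were seen. Lists of other photosynthesis genes and of cell type markers, set by product names, were not analysed here because the reference table used here gives no names for these identifiers, and for the same reason no sequence is shown.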

Additional observations from a re-analysis of the deposited data

Results flagged for a closer look

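For 10 light-harvesting genes the change at 6 h differed from the change at 1 h in edgeR's direct test of 6 h against 1 h (adjusted p below 0.05), where 66.3% of all tested genes were called. Of these, 7 were lower at 6 h than at 1 h, with log2 fold changes of -2.60 for Solyc02g070990, -1.20 for Solyc12g006140, -1.0 for Solyc02g070970, -0.99 for Solyc02g071000, -0.73 for Solyc05g056050, -0.72 for Solyc02g070980 and -0.45 for Solyc07g022900. The other 3 were higher, with 1.47 for Solyc06g069000, 0.51 for Solyc08g067330 and 0.49 for Solyc08g067320. Of the 10, Solyc02g070990, Solyc12g006140 and Solyc06g069000 were called under each of 16 alternatives, which was not counted over all tested genes. The 2 genes of chromosome 8 share a locus, and 4 of the 7 lower genes belong to one tandem array.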

How the results depend on the processing

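No member was called higher than at 0 h under any alternative, and every log2 fold change at 1 h against 0 h stayed below 0. The number called lower at 1 h was 9 with a minimum log2 change of 1 and 7 to 29 when a library was left out. At 6 h against 0 h it was 12 with a minimum change of 1 (10.1% of all tested genes). When a library was left out, all 30 values of that comparison stayed below 0, with medians from -1.09 to -0.64. Between 6 h and 1 h, the number lower was 11 with DESeq2, 3 with library-size scaling, 3 at a threshold of 0.01, 3 with a minimum change of 1 and 2 to 22 when a library was left out. The number higher was 8 with library-size scaling, 1 at a threshold of 0.01, 1 with a minimum change of 1 and 1 to 6 when a library was left out. Of all tested genes, 32.8% were lower at 6 h than at 1 h with DESeq2 and 18.6% with library-size scaling. This share was 25.8% at a threshold of 0.01 and 14.6% with a minimum change of 1. Those higher were 53.6% with library-size scaling, 26.6% at a threshold of 0.01 and 17.4% with a minimum change of 1. The members' share of counts at 0 h was 5.17% of the counts in tested genes and 5.30% of the TMM-scaled size, and at 1 h it was 3.30% of the latter.

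Library-size scaling moved the median of all genes by -0.15 at 1 h and 0.27 at 6 h against 0 h, and by 0.42 between the heat times, and upper-quartile scaling by -0.14, 0.09 and 0.23. With library sizes, 30 members were called lower at 1 h (37.5% of all tested genes lower, 26.5% higher) and 20 at 6 h (17.7% lower, 43.3% higher). With library sizes, 2 uncalled genes turned above 0 at 6 h against 0 h, Solyc03g005760 (0.029) and Solyc08g067330 (0.020). Between 6 h and 1 h, library-size scaling called Solyc01g105050 (edgeR adjusted p = 0.0243) and Solyc03g005760 (adjusted p = 0.0235) higher, against the sign of the main fit. None of the genes whose 6 h against 1 h value changed sign had been called in the main fit. With library sizes these values were 0.17 (Solyc01g105030), 0.41 (Solyc01g105050), 0.36 (Solyc02g070940), 0.033 (Solyc02g071010), 0.33 (Solyc02g071030), 0.39 (Solyc03g005760), 0.28 (Solyc03g115900), 0.17 (Solyc06g063370), 0.16 (Solyc06g069730), 0.11 (Solyc07g047850), 0.34 (Solyc07g063600), 0.11 (Solyc09g014520), 0.24 (Solyc10g006230), 0.14 (Solyc10g007690), 0.23 (Solyc12g009200) and 0.33 (Solyc12g011450). With upper-quartile scaling they were 0.22 (Solyc01g105050), 0.17 (Solyc02g070940), 0.14 (Solyc02g071030), 0.20 (Solyc03g005760), 0.083 (Solyc03g115900), 0.15 (Solyc07g063600), 0.049 (Solyc10g006230), 0.041 (Solyc12g009200) and 0.14 (Solyc12g011450). When a library was left out, values of this kind ran from -0.221 to 0.170 (Solyc01g105050), -0.313 to 0.158 (Solyc02g070940), -0.376 to 0.155 (Solyc02g071030), -0.161 to 0.0821 (Solyc03g005760), -0.237 to 0.330 (Solyc03g005770), -0.210 to 0.431 (Solyc03g005780), -0.369 to 0.171 (Solyc07g063600), -0.472 to 0.0516 (Solyc12g009200), -0.0593 to 0.497 (Solyc12g011280) and -0.326 to 0.115 (Solyc12g011450).

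With the replicate number as a block, 20 members were called lower at 1 h and 26 at 6 h against 0 h. Of all tested genes, 31.015% and 27.6% were called lower in that order. Between the heat times 8 members were called lower and 3 higher, where 31.7% of all tested genes were lower and 34.5% higher. The deviations of same-numbered libraries correlated at -0.10 (0 h and 1 h), -0.02 (0 h and 6 h) and 0.20 (1 h and 6 h). These values cannot settle whether same-numbered libraries were paired, as each time has only 2 libraries. With 2 libraries a time, edgeR's p-values rest on the spread between these pools, shared over the 3 times and moderated over genes. They measure no spread beyond these pools.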
